A study of Homo sapiens with 8 samples.

Results

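The genes described here are 10 secreted signalling genes of melanoma cells, namely the chemokine genes CXCL8, CXCL1, CXCL2, CXCL10 and CCL2, the cytokine genes IL6, LIF, IL1B and IL24, and STC1, which encodes the glycoprotein hormone stanniocalcin. They were taken by name from the 18404 genes of the array, with earlier results of these data known. Each was read by a single probe set, and all 10 were tested, since no filter on low values was applied. mRNA was measured and no protein, so whether a change in mRNA was followed by a change in secretion was not measured.

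The cells were COLO829, an established human melanoma line with an activating mutation of the kinase BRAF, and all of them came from this single line. They had been infected with the vector pGIPZ carrying either a hairpin against MITF (shMITF), the transcription factor that sets melanocyte identity, or a scrambled hairpin (shScrambled), and every group was then selected with puromycin for 2 days. For the next 24 h they received PLX4032 at 1 µM (the drug vemurafenib, which inhibits mutant BRAF) or its control DMSO. The 4 groups, with 2 arrays each called A and B, were therefore knockdown PLX4032 cells, scrambled PLX4032 cells, knockdown DMSO cells and scrambled DMSO cells. A single MITF hairpin is named in the labels, which do not say whether arrays A and B came from separate cultures, so the p-values below measure the spread between these arrays, which may be technical.

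Chemokines are small secreted proteins that guide the migration of leukocytes through receptors coupled to G proteins. CXCL8, CXCL1 and CXCL2 belong to the class that attracts neutrophils through CXCR2, CXCL10 is induced by interferons and attracts T cells through CXCR3, and CCL2 attracts monocytes through CCR2. IL6 and LIF signal through the shared receptor subunit gp130 (gene IL6ST) to JAK kinases and STAT3, IL1B is a mediator of inflammation that is made as a precursor, and IL24, also known as a melanoma differentiation-associated gene, belongs to the IL-10 family. Genes of this kind are commonly controlled by the transcription factors NF-kB and AP-1 and, for CXCL10, by interferon regulatory factors, and melanoma cells are known to secrete several of the proteins.

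Values are log2 intensities, in which 1 unit is a doubling of signal, and changes are differences of log2 intensity, each with its SE (after the ± sign) from a limma model of the 8 arrays. A gene is said to have risen or fallen when limma's p-value, adjusted by Benjamini-Hochberg over all 18404 genes, was under 0.05. MITF, the targeted gene, read 10.07 and 10.08 in knockdown PLX4032 cells against 10.88 and 10.80 in scrambled PLX4032 cells, and 9.57 and 9.47 in DMSO-treated knockdown cells against 10.44 and 10.46 in scrambled DMSO cells. It was thus reduced in every knockdown array but still read, with a fall of 0.76 ± 0.080 under PLX4032 and of 0.93 ± 0.080 in DMSO. Of 9 melanocyte markers (MITF among them), 1 rose and 5 fell on knockdown in PLX4032, 1 rose and 4 fell on knockdown in DMSO, and with PLX4032 6 rose and 1 fell in knockdown cells and 7 rose and 0 fell in scrambled cells. Group means ran from 11.80 to 12.73 for PMEL and from 10.40 to 11.04 for SOX10, but from 4.4 to 8.47 for MLANA, from 5.58 to 10.21 for TYRP1 and from 6.76 to 9.52 for SLC45A2, and GPR143 stayed between 4.24 and 4.52. Among 11 leukocyte markers, the levels lay between 3.20 and 6.44 on all arrays and the pan-leukocyte gene PTPRC averaged between 3.27 and 3.44 over the groups. CD14 was the only leukocyte marker called on knockdown, with rises of 0.70 ± 0.11 on knockdown in PLX4032 and of 0.85 ± 0.11 on knockdown in DMSO. Of 8 fibroblast markers 1 rose and 1 fell on knockdown in PLX4032 and 2 rose and 2 fell in DMSO. In PLX4032 COL3A1 rose (0.66 ± 0.10) and FAP fell (-0.56 ± 0.081). In DMSO LUM (0.39 ± 0.085) and PDGFRA (0.32 ± 0.11) rose, and FAP (-0.84 ± 0.081) and COL1A2 (-0.41 ± 0.083) fell. LUM averaged 9.37 to 9.81. Of 8 endothelial markers 1 rose and 1 fell on knockdown in PLX4032 and 2 rose and 1 fell in DMSO. In PLX4032 PECAM1 rose (0.27 ± 0.088) and KDR fell (-0.53 ± 0.084). In DMSO TEK (0.37 ± 0.10) and TIE1 (0.38 ± 0.096) rose and KDR fell (-0.93 ± 0.084). Of 7 keratinocyte markers 1 rose and 1 fell on knockdown in PLX4032 and 0 rose and 0 fell in DMSO. The part of these markers in the changes of the 10 genes was not tested. In bulk RNA, fewer cells of a kind and less RNA per cell cannot be told apart. No detection calls were used, so a low reading was not shown to lie above background, and a fold or rank set against one is that of the measured signal and may understate the change in mRNA.

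Promoter stretches of the 4 chemokine genes on chromosome 4 are shown because these genes lie on the same chromosome and responded differently. The sequences are from RefSeq on GRCh38.p14, written 5′ to 3′ on the strand of the gene, and 7 of the 10 genes had a usable window of 250 bases before and 50 bases after the start site. Capitals mark matches on either strand to GGAATTTCC, to the NF-kB consensus, to the AP-1 motif TGANTCA or to the interferon response motif (GAAA, any 2 bases, GAAA), and overlapping matches run together. The matches describe letters and not bound sites.
CXCL8 (chr4:73740419-73740518, plus strand): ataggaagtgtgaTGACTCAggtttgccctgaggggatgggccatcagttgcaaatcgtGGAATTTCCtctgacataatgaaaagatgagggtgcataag
CXCL1 (chr4:73869263-73869362, plus strand): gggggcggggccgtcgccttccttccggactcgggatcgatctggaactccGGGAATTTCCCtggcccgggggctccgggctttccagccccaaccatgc
CXCL2 (chr4:74099226-74099325, minus strand): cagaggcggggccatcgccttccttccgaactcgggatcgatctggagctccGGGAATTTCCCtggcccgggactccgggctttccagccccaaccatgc
CXCL10 (chr4:76023588-76023737, minus strand): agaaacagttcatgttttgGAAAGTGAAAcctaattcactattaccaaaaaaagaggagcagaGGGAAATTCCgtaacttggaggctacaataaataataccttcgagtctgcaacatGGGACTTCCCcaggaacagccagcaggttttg

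GGAATTTCC was present in the windows of all 4 of these chemokine genes, at positions -91 to -83 of CXCL8, -78 to -70 of CXCL1, -77 to -69 of CXCL2 and, on the opposite strand, -176 to -168 of CXCL10, counted back from the start site. It was found in 0.461% of all 35116 promoter windows of that length. The motif was chosen after these sequences had been seen, so that share is no test of the 4 matches. The matches of CXCL1 and CXCL2 lie in windows that are 76.8% identical and do not count as separate. The NF-kB consensus was matched in CXCL1, CXCL2, CXCL10 and IL6, and in 11.3% of all windows. CXCL8 alone of the 7 windows held the AP-1 motif, at -137 to -131, and 7.71% of all windows did. The interferon response motif stood at -221 to -212 of CXCL10 and, on the opposite strand, at -83 to -74 of IL24, and 3.57% of all windows held it. The E-boxes CACGTG and CATGTG, the letters that MITF recognises, gave 0 matches in the 7 windows, against 7.26% and 11.1% of all windows. The windows of CXCL2 and CXCL1 shared 228 identical bases in 297 aligned columns (76.8%).

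**Figure D1:**
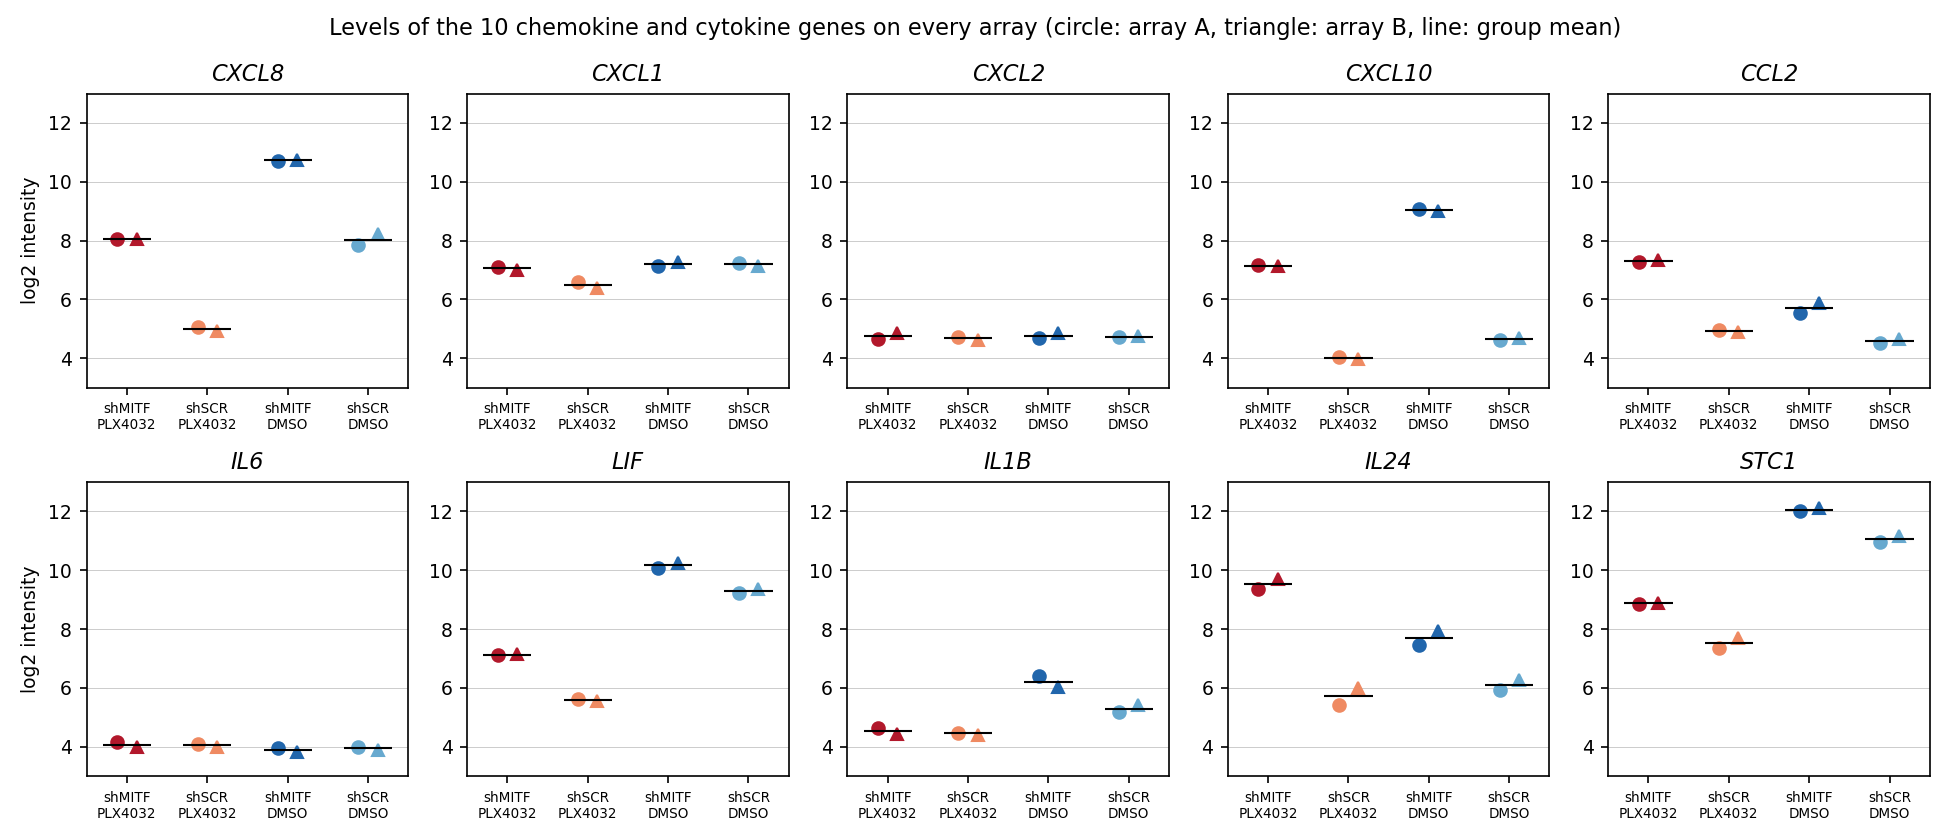
Log2 intensity of each of the 10 genes on all 8 arrays, with 1 panel per gene, groups along the horizontal axis, a circle for array A, a triangle for array B and a line for the group mean. CXCL8, CXCL10, LIF, IL1B and STC1 are highest in knockdown DMSO cells, CCL2 and IL24 in knockdown PLX4032 cells, and CXCL2 and IL6 stay within 0.23 and 0.35 log2 units over the 8 arrays.

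Of the 10 genes, CXCL2 and IL6 were called in none of the comparisons. MITF knockdown raised 7 of the 10 genes in each treatment and lowered 0, and PLX4032 lowered 5 of them in knockdown cells and 6 in scrambled cells. The background has to be read beside these counts, since a large share of all genes changed. On knockdown in DMSO, 7 rose and 0 fell, where 14.4% of all genes rose and 18.8% fell (33.2% in either direction), with a median change of 0.95 over the 10 genes and 0.020 over all genes. On knockdown in PLX4032, 7 rose and 0 fell, where 13.5% of all genes rose and 15% fell (28.5% in either direction), with medians of 1.45 and 0.022. With PLX4032 in scrambled cells 1 rose and 6 fell, where 17.3% of all genes rose and 16.8% fell (34.1% in either direction), with medians of -0.67 and 0.051. With PLX4032 in knockdown cells 2 rose and 5 fell, where 18.6% of all genes rose and 15.1% fell (33.7% in either direction), with medians of -0.92 and 0.039. Comparisons that use the same group share its arrays, and the counts are therefore not independent of each other. The 10 genes were chosen with earlier results of these data known, so the shares of all genes are no test of these counts. The same shares are the background for the counts of markers and other gene lists given above and below.

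CXCL8 encodes interleukin-8, the best known of the neutrophil chemokines, and its level covered the widest range of the 10 genes. It read 8.05 and 8.06 in knockdown PLX4032 cells, 5.05 and 4.94 in scrambled PLX4032 cells, 10.71 and 10.75 in DMSO-treated knockdown cells, and 7.86 and 8.21 in scrambled DMSO cells. Knockdown DMSO cells were the highest and scrambled PLX4032 cells the lowest, with a 53.3-fold ratio of measured signal between the group means against a level below which 29.2% of genes read, and the values of the other 2 groups overlapped. Knockdown raised CXCL8 by 3.06 ± 0.11 under PLX4032 (8.35-fold, limma adjusted p = 1.04e-08) and by 2.70 ± 0.11 in DMSO (6.48-fold, adjusted p = 5.16e-08). PLX4032 lowered it by 2.68 ± 0.11 in knockdown cells, so that it fell to a mean of 8.05, against 10.73 in knockdown DMSO cells (6.39-fold, adjusted p = 1.95e-08). In scrambled cells it fell by 3.04 ± 0.11 (8.23-fold, adjusted p = 1.6e-08), the tenth largest fall of all 18404 genes. The changes were opposite and close in size: with both perturbations, CXCL8 differed from scrambled DMSO cells by 0.02 ± 0.11 (95% interval -0.22 to 0.26, adjusted p = 0.894). The interaction, which is the change with PLX4032 in knockdown cells minus that in scrambled cells, was 0.37 ± 0.15 and did not pass the threshold (95% interval 0.02 to 0.71, adjusted p = 0.173), but it did when array A of scrambled DMSO cells was left out (0.54, adjusted p = 0.0243).

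CXCL1 and CXCL2 act on the same receptor as CXCL8. CXCL1 followed CXCL8 in part, with smaller changes, and CXCL2 did not. CXCL1 read 7.1 and 7.0 in knockdown PLX4032 cells, 6.58 and 6.38 in scrambled PLX4032 cells, 7.15 and 7.26 in DMSO-treated knockdown cells, and 7.24 and 7.13 in scrambled DMSO cells. The scrambled PLX4032 arrays were the lowest, the knockdown PLX4032 arrays lay just below the DMSO arrays without overlapping them, and the DMSO groups overlapped. PLX4032 lowered CXCL1 in scrambled cells by 0.70 ± 0.095 (1.63-fold, adjusted p = 0.000173), whereas in knockdown cells the change was -0.15 ± 0.095 (95% interval -0.36 to 0.06, adjusted p = 0.276). The interaction was 0.55 ± 0.13 (adjusted p = 0.0218), but the call ended when the deposited values were quantile-normalized once more (0.50, adjusted p = 0.0502) or when array A of knockdown DMSO, knockdown PLX4032 or scrambled DMSO cells, or array B of scrambled PLX4032 cells, was left out (0.46 to 0.51, adjusted p = 0.0564 to 0.0936). CXCL1 rose on knockdown under PLX4032 by 0.57 ± 0.095 (adjusted p = 0.000944), and in DMSO its change was 0.01 ± 0.095 (95% interval -0.20 to 0.22, adjusted p = 0.923).

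CXCL2 lay between 4.63 and 4.86 on all 8 arrays, and its largest change in any comparison of 2 groups was 0.07 ± 0.098, on knockdown under PLX4032 (95% interval -0.15 to 0.28, adjusted p = 0.675). In all, 25.4% of genes had a lower mean. Of the other genes of the class, CXCL5 ranged from 4.81 to 5.12 and was called in no comparison of 2 groups, and CXCL6 ranged from 4.04 to 4.48 and was called with both perturbations against scrambled DMSO cells alone (0.26 ± 0.094, adjusted p = 0.0376). CXCL3, whose probe set ranged from 4.25 to 4.72, rose on knockdown in DMSO by 0.31 ± 0.096 (adjusted p = 0.0305) and fell with PLX4032 in knockdown cells by 0.39 ± 0.096 (adjusted p = 0.00822). CXCL1, CXCL2 and CXCL3 are close relatives, and array probes of such genes can read more than 1 of them. Their receptors read low and flat, with group means of 3.81 to 3.94 for CXCR1 and 3.52 to 3.58 for CXCR2.

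CXCL10 showed the largest rise of the 10 genes. It read 7.17 and 7.13 in knockdown PLX4032 cells, 4.04 and 3.97 in scrambled PLX4032 cells, 9.06 and 9.02 in DMSO-treated knockdown cells, and 4.63 and 4.67 in scrambled DMSO cells. No groups overlapped, and both knockdown groups lay above both scrambled groups. Knockdown raised it by 3.15 ± 0.079 under PLX4032 (8.86-fold, adjusted p = 1.41e-09) and by 4.39 ± 0.079 in DMSO (21-fold in measured signal, adjusted p = 2.79e-10), the third largest measured rise of all genes, against a scrambled DMSO level below which 25.6% of genes read. PLX4032 lowered CXCL10 by 1.89 ± 0.079 in knockdown cells (3.7-fold, adjusted p = 2.28e-08) and by 0.64 ± 0.079 in scrambled cells (1.56-fold, adjusted p = 8.82e-05). The fall was larger in knockdown cells by 1.25 ± 0.11 (interaction -1.25, adjusted p = 4.2e-05). In scrambled PLX4032 cells 14.6% of genes read lower than CXCL10, and how far the fall there was limited by its low level was not tested.

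Most interferon-stimulated genes beside CXCL10 rose on knockdown, and few of them fell with PLX4032. Of 14 interferon pathway and response genes, 12 rose and 0 fell on knockdown in PLX4032 (median 1.5) and 13 rose and 0 fell on knockdown in DMSO (median 2.20), with rises of the antiviral gene IFIT2 of 3.38 ± 0.12 and 3.59 ± 0.12. With PLX4032 in knockdown cells 0 rose and 2 fell (median -0.19), and in scrambled cells 5 rose and 0 fell (median 0.48). IFIT1, which encodes a protein that binds viral RNA, read 11.42 and 11.19 in knockdown PLX4032 cells, 9.23 and 7.81 in scrambled PLX4032 cells, 11.57 and 11.46 in DMSO-treated knockdown cells, and 7.97 and 7.82 in scrambled DMSO cells. Array A of scrambled PLX4032 cells was thus high for IFIT1 but not for CXCL10. CXCL11, which shares the receptor CXCR3 with CXCL10, rose on knockdown in DMSO by 1.61 ± 0.10 (adjusted p = 1.11e-06) and fell with PLX4032 in knockdown cells by 1.99 ± 0.10 (adjusted p = 1.2e-07), while its change on knockdown under PLX4032 was 0.15 ± 0.10 (adjusted p = 0.33). CXCL9, the other ligand of CXCR3, averaged between 4.37 and 4.65 over the groups, and CXCR3 itself between 5.41 and 5.54.

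LIF and STC1 had the most similar profiles of any pair among the 10 genes, with a root mean square distance of 0.142 log2 units between their values after each was centred on its mean over the 8 arrays. LIF, the leukaemia inhibitory factor, read 7.13 and 7.14 in knockdown PLX4032 cells, 5.61 and 5.54 in scrambled PLX4032 cells, 10.07 and 10.26 in DMSO-treated knockdown cells, and 9.24 and 9.37 in scrambled DMSO cells. STC1, whose hormone was first known from calcium regulation in fish, read 8.86 and 8.88 in knockdown PLX4032 cells, 7.36 and 7.71 in scrambled PLX4032 cells, 12.01 and 12.11 in DMSO-treated knockdown cells, and 10.97 and 11.17 in scrambled DMSO cells. For both genes the PLX4032 groups lay below both DMSO groups, knockdown lay above scrambled within each treatment, and no groups overlapped. PLX4032 lowered LIF by 3.03 ± 0.093 in knockdown cells (8.18-fold, adjusted p = 3.15e-09) and by 3.73 ± 0.093 in scrambled cells (13.3-fold, adjusted p = 1.46e-09). STC1 fell by 3.19 ± 0.12 in knockdown cells (9.12-fold, adjusted p = 8.5e-09) and fell by 3.54 ± 0.12 in scrambled cells (11.6-fold, adjusted p = 8.14e-09). In scrambled cells these were the fifth and the seventh largest falls of all genes.

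Knockdown raised LIF by 1.56 ± 0.093 under PLX4032 (2.94-fold, adjusted p = 3.7e-07) and by 0.86 ± 0.093 in DMSO (1.82-fold, adjusted p = 4.19e-05). It raised STC1 by 1.34 ± 0.12 under PLX4032 (2.52-fold, adjusted p = 7.64e-06) and by 0.99 ± 0.12 in DMSO (1.98-fold, adjusted p = 8.47e-05). The rise under PLX4032 did not make up for the fall: with both perturbations LIF differed from scrambled DMSO cells by -2.17 ± 0.093 (adjusted p = 1.77e-08) and STC1 by -2.20 ± 0.12 (adjusted p = 7.45e-08). The interaction passed for LIF (0.70 ± 0.13, adjusted p = 0.00543), whose fall was smaller in knockdown cells, and not for STC1 (0.35 ± 0.17, 95% interval -0.02 to 0.71, adjusted p = 0.23). The same 3 genes had the profiles nearest to LIF and to STC1 among all other genes, namely CEMIP, SYTL5 and GEM, at distances of 0.325, 0.346 and 0.403 from LIF and of 0.283, 0.416 and 0.413 from STC1.

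Outputs of the MAPK pathway, which PLX4032 blocks in cells with mutant BRAF, fell beside LIF, STC1 and CXCL8. Of 16 such genes, 15 fell and 0 rose with PLX4032 in knockdown cells (median -1.73), and 15 fell and 0 rose in scrambled cells (median -2.0). The phosphatase gene DUSP6 fell by 2.55 ± 0.084 in knockdown cells and by 2.68 ± 0.084 in scrambled cells, and the inhibitor gene SPRY4 changed by -5.3 ± 0.10 and -4.5 ± 0.10. SPRY4 read 6.46 in knockdown PLX4032 cells and 6.31 in scrambled PLX4032 cells on average, a difference of 0.15 ± 0.10 (95% interval -0.07 to 0.38, adjusted p = 0.303), and DUSP6 rose on knockdown under PLX4032 by 0.59 ± 0.084 (adjusted p = 0.000292). On knockdown in DMSO 7 of the 16 genes rose and 1 fell (median 0.09). Among the rises were DUSP5 (1.86 ± 0.095), EGR1 (1.34 ± 0.14), SPRY4 (0.95 ± 0.10) and DUSP6 (0.46 ± 0.084), and MYC fell (-0.39 ± 0.098). On knockdown under PLX4032 the 16 genes were mixed, with 9 rises and 4 falls (median 0.47). The largest rises were IER3 (1.40 ± 0.087) and ETV1 (1.38 ± 0.095). The largest falls were ETV5 (-1.37 ± 0.085), MYC (-1.35 ± 0.098) and ETV4 (-1.21 ± 0.089). Among 9 measured genes around stanniocalcin (binding partners and hypoxia genes), the growth factor gene VEGFA fell with PLX4032 by 0.66 ± 0.090 in knockdown cells and by 1.87 ± 0.090 in scrambled cells, and NDRG1 changed by -1.29 ± 0.078 and -1.47 ± 0.078. In each of these comparisons 4 of the 9 fell and 0 rose, and STC2, the paralogue of STC1, was called in none (group means 3.92 to 4.07).

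IL1B had the same order of group means as LIF and STC1. It read 4.63 and 4.42 in knockdown PLX4032 cells, 4.48 and 4.41 in scrambled PLX4032 cells, 6.39 and 6.03 in DMSO-treated knockdown cells, and 5.17 and 5.42 in scrambled DMSO cells. The 2 PLX4032 groups overlapped, and all other groups were apart. Knockdown raised it in DMSO by 0.91 ± 0.13 (1.88-fold, adjusted p = 0.000311), and under PLX4032 its change was 0.08 ± 0.13 (95% interval -0.21 to 0.36, adjusted p = 0.714). With PLX4032 it fell by 1.69 ± 0.13 in knockdown cells (3.22-fold, adjusted p = 2.08e-06) and by 0.85 ± 0.13 in scrambled cells (1.8-fold, adjusted p = 0.000427). The interaction of -0.84 ± 0.18 (adjusted p = 0.0131) lost its call without array A of knockdown DMSO cells (-0.66, adjusted p = 0.0549) or without array A of scrambled PLX4032 cells (-0.81, adjusted p = 0.0641). Of 10 other ligand genes of the IL-1 family, IL1A alone rose on knockdown, by 0.82 ± 0.086 in PLX4032 and by 0.50 ± 0.086 in DMSO.

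IL24 and CCL2 went the other way with PLX4032 in knockdown cells: they were highest where MITF was reduced and BRAF was inhibited. IL24 read 9.36 and 9.69 in knockdown PLX4032 cells, 5.43 and 6.0 in scrambled PLX4032 cells, 7.47 and 7.93 in DMSO-treated knockdown cells, and 5.91 and 6.25 in scrambled DMSO cells. The knockdown groups were apart from each other and from the scrambled groups, which overlapped, and array A read lower than array B in all 4 groups. PLX4032 raised IL24 in knockdown cells by 1.83 ± 0.20 (3.55-fold, adjusted p = 3.45e-05), whereas in scrambled cells the change was -0.36 ± 0.20 (95% interval -0.81 to 0.09, adjusted p = 0.205). The interaction of 2.19 ± 0.29 (adjusted p = 0.000581) was the 18th largest positive value of all genes. Knockdown raised IL24 by 3.81 ± 0.20 under PLX4032 (14-fold, adjusted p = 1.7e-07), the fourth largest rise of all genes, and by 1.62 ± 0.20 in DMSO (3.07-fold, adjusted p = 0.000128).

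CCL2 read 7.27 and 7.33 in knockdown PLX4032 cells, 4.96 and 4.88 in scrambled PLX4032 cells, 5.55 and 5.86 in DMSO-treated knockdown cells, and 4.51 and 4.64 in scrambled DMSO cells. No groups overlapped, and the knockdown PLX4032 cells lay far above the rest. PLX4032 raised CCL2 by 1.59 ± 0.11 in knockdown cells (3.01-fold, adjusted p = 7.14e-07). In scrambled cells the rise was 0.35 ± 0.11 (1.27-fold, adjusted p = 0.0281), and that call ended when quantile normalization was repeated (0.26, adjusted p = 0.112), without array A of scrambled DMSO cells (0.28, adjusted p = 0.126) and without array A or array B of scrambled PLX4032 cells (0.31 and 0.39, adjusted p = 0.141 and 0.0718). The interaction was 1.25 ± 0.15 (adjusted p = 0.00034). Knockdown raised CCL2 by 2.38 ± 0.11 under PLX4032 (5.22-fold, adjusted p = 4.47e-08) and by 1.14 ± 0.11 in DMSO (2.2-fold, adjusted p = 1.62e-05). Its receptor gene CCR2 read between 3.93 and 4.15 on average in the 4 groups.

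The cytokine gene IL34, a ligand of the receptor of macrophage colony-stimulating factor, shared the high level in knockdown PLX4032 cells with IL24 and CCL2. It averaged 7.89 in knockdown PLX4032 cells, 6.18 in scrambled PLX4032 cells, 6.10 in DMSO-treated knockdown cells and 5.86 in scrambled DMSO cells, with a PLX4032 change of 1.79 ± 0.13 in knockdown cells and an interaction of 1.47 ± 0.19 (adjusted p = 0.000435). By contrast the IL-10 family ligands other than IL24 gave 0 rises and 2 falls among 6 genes with PLX4032 in knockdown cells, IL10 by 0.63 ± 0.085 and IL19 by 0.26 ± 0.085. The genes nearest in profile to IL24 were PMEPA1, MOXD1 and PTPRZ1 (distances 0.362, 0.384 and 0.384), and those nearest to CCL2 were ARHGAP26, COL5A2 and ADAM19 (0.171, 0.198 and 0.204). For CXCL8 they were ADAMTS1 (0.296), ITGA10 (0.536) and TAFA2 (0.572), and for CXCL10 FST (0.442), MUC7 (0.503) and RSAD2 (0.584). IL1B was nearest to C3AR1, MLKL and ANGPT1 (0.127, 0.136 and 0.137), and CXCL1 to GNB3, CNTNAP4 and MICA (0.066, 0.090 and 0.093).

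**Figure D2:**
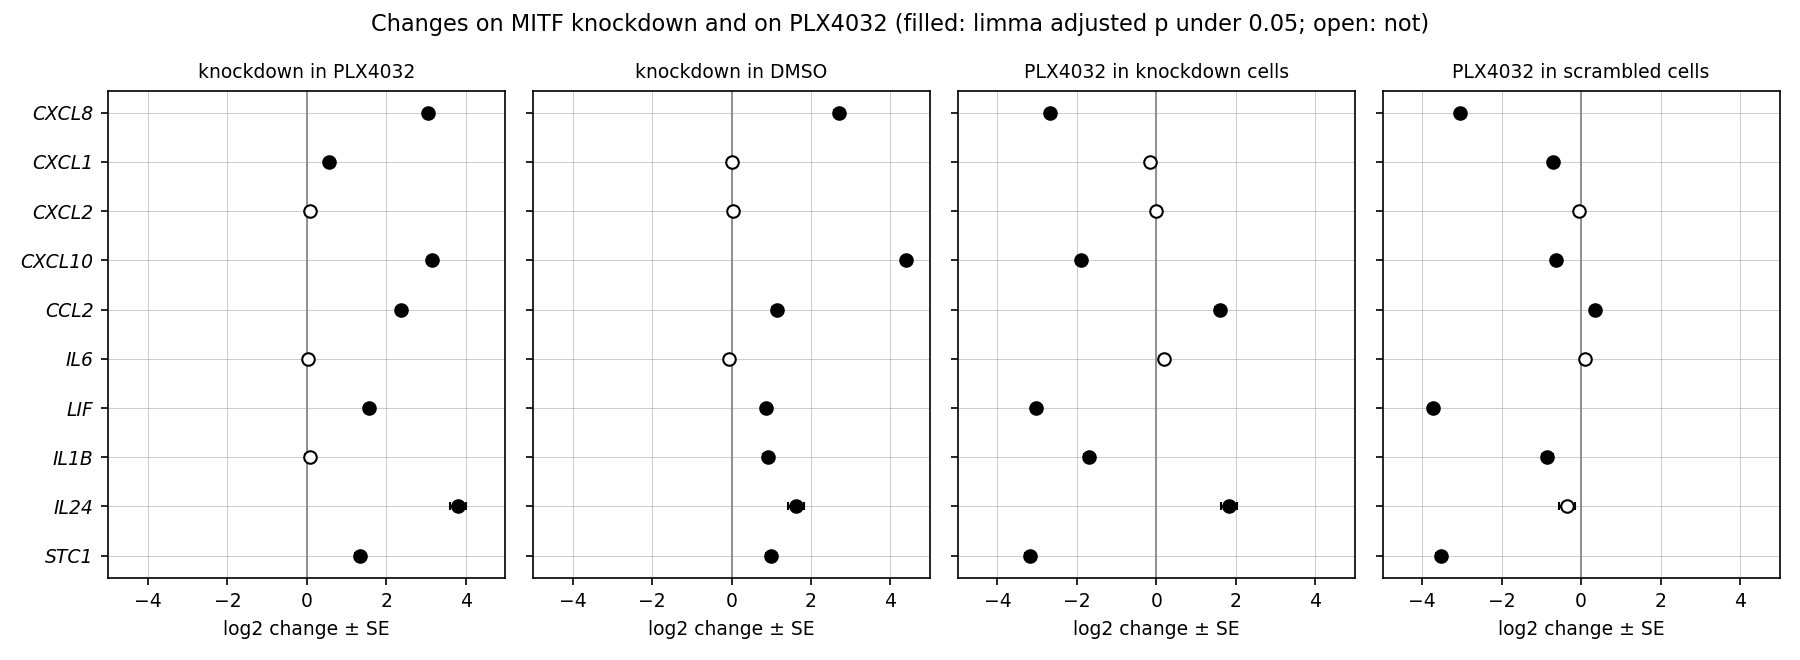
Log2 changes ± SE (horizontal axis, 2 arrays per group) of the 10 genes on MITF knockdown in PLX4032 and in DMSO and on PLX4032 in knockdown and in scrambled cells, with filled points for a limma adjusted p under 0.05. No gene falls on knockdown, and with PLX4032 in knockdown cells CCL2 (1.59) and IL24 (1.83) rise while CXCL8 (-2.68), LIF (-3.03) and STC1 (-3.19) fall.

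IL6 lay between 3.82 and 4.16 on all 8 arrays, and 14.2% of all genes had a lower mean. Its largest change between 2 groups was 0.19 ± 0.094, with PLX4032 in knockdown cells (95% interval -0.01 to 0.40, adjusted p = 0.149), and it was called in no comparison. The related ligand gene IL11, also of the gp130 family, read high in knockdown DMSO cells alone, with a mean of 5.69 in knockdown PLX4032 cells, 5.45 in scrambled PLX4032 cells, 7.48 in DMSO-treated knockdown cells and 5.54 in scrambled DMSO cells. IL11 rose on knockdown in DMSO by 1.94 ± 0.099 (adjusted p = 2.11e-07) and fell with PLX4032 in knockdown cells by 1.80 ± 0.099 (adjusted p = 1.65e-07). OSM, CTF1 and IL27 were called in none of the 4 comparisons within a treatment or a hairpin.

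The comparison of knockdown PLX4032 cells with scrambled DMSO cells, which differ in both perturbations, gave 3 rises and 3 falls among the 10 genes, where 27.1% of all genes rose and 21.5% fell (48.6% in either direction), with medians of 0.02 and 0.083. CXCL10 (2.5 ± 0.079, adjusted p = 2.88e-09), CCL2 (2.73 ± 0.11, adjusted p = 1e-08) and IL24 (3.45 ± 0.20, adjusted p = 1.53e-07) rose. LIF and STC1 fell as given above, and IL1B fell by 0.77 ± 0.13 (adjusted p = 0.000532). CXCL1 changed by -0.14 ± 0.095 (95% interval -0.35 to 0.07, adjusted p = 0.259). In the interaction, 4 of the 10 genes were called with a positive value (CXCL1, CCL2, LIF and IL24) and 2 with a negative value (CXCL10 and IL1B), where 6.97% of all genes were called positive and 4.85% negative (11.8% in either direction), with medians of 0.36 and 0.001. The count was 4 without array A of knockdown DMSO cells.

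**Figure D3:**
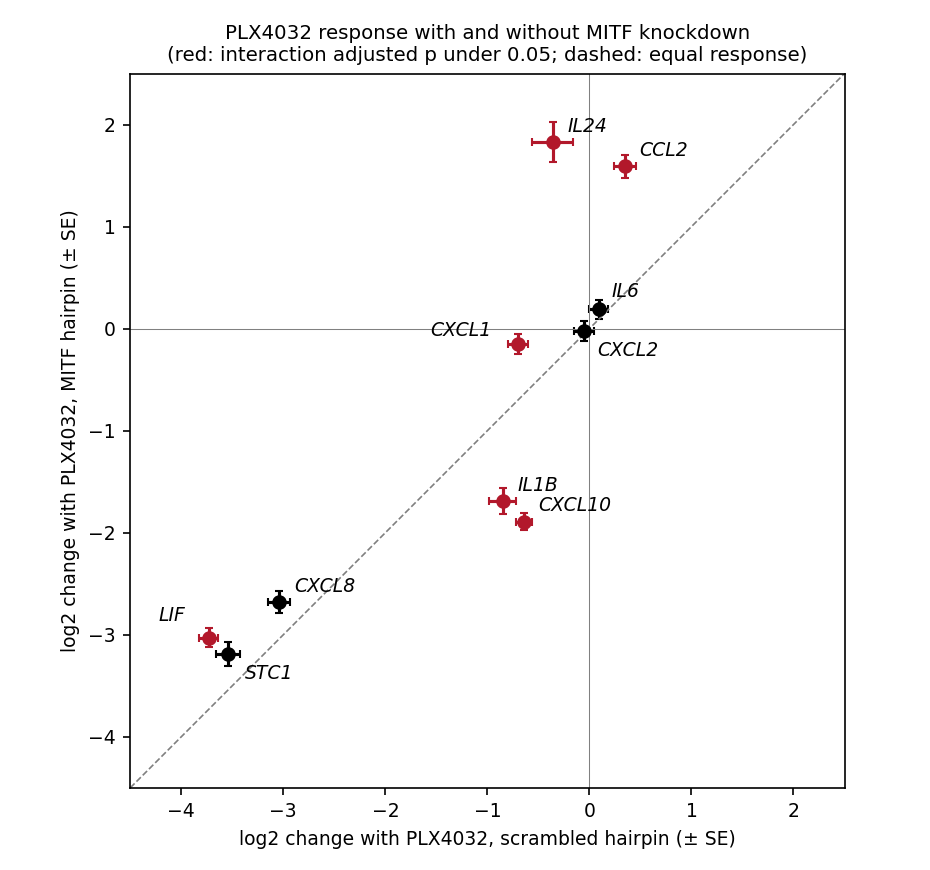
Log2 change with PLX4032 in knockdown cells (vertical axis) against that in scrambled cells (horizontal axis), ± SE, for the 10 genes, in red where the limma interaction had an adjusted p under 0.05; the dashed line marks an equal change. IL24 (1.83 and -0.36) and CCL2 (1.59 and 0.35) lie far above the line, and CXCL10 (-1.89 and -0.64) and IL1B (-1.69 and -0.85) lie below it.

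Most other chemokine and cytokine genes, like most of all genes, were not called in any single one of the following comparisons. The 10 genes were chosen with earlier results of these data known, so the counts below are not a like comparison with theirs. Several of the others also read low in all groups, such as PPBP (group means 3.55 to 3.69), where a change is hard to see. Of 67 other ligand genes, 8 rose and 4 fell on knockdown in PLX4032 (median 0.03), where 13.5% of all genes rose and 15% fell. On knockdown in DMSO 15 rose and 3 fell (median 0.13), where 14.4% of all genes rose and 18.8% fell. With PLX4032 in knockdown cells 4 rose and 11 fell (median 0.04), where 18.6% of all genes rose and 15.1% fell. With PLX4032 in scrambled cells 5 rose and 6 fell (median 0.07), where 17.3% of all genes rose and 16.8% fell. CCL5, which attracts T cells and is also inducible by interferon, rose on knockdown by 0.88 ± 0.089 in PLX4032 and by 1.36 ± 0.089 in DMSO. CSF1, the macrophage colony-stimulating factor gene, rose by 0.81 ± 0.079 and 0.86 ± 0.079. CX3CL1, the membrane-bound chemokine fractalkine, fell with PLX4032 by 1.45 ± 0.11 in knockdown cells and by 0.80 ± 0.11 in scrambled cells, and the B cell factor gene TNFSF13B changed by -1.54 ± 0.091 and -1.12 ± 0.091. The apoptosis ligand gene TNFSF10 rose on knockdown in DMSO by 1.23 ± 0.11 and fell with PLX4032 in knockdown cells by 1.01 ± 0.11.

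**Figure D4:**
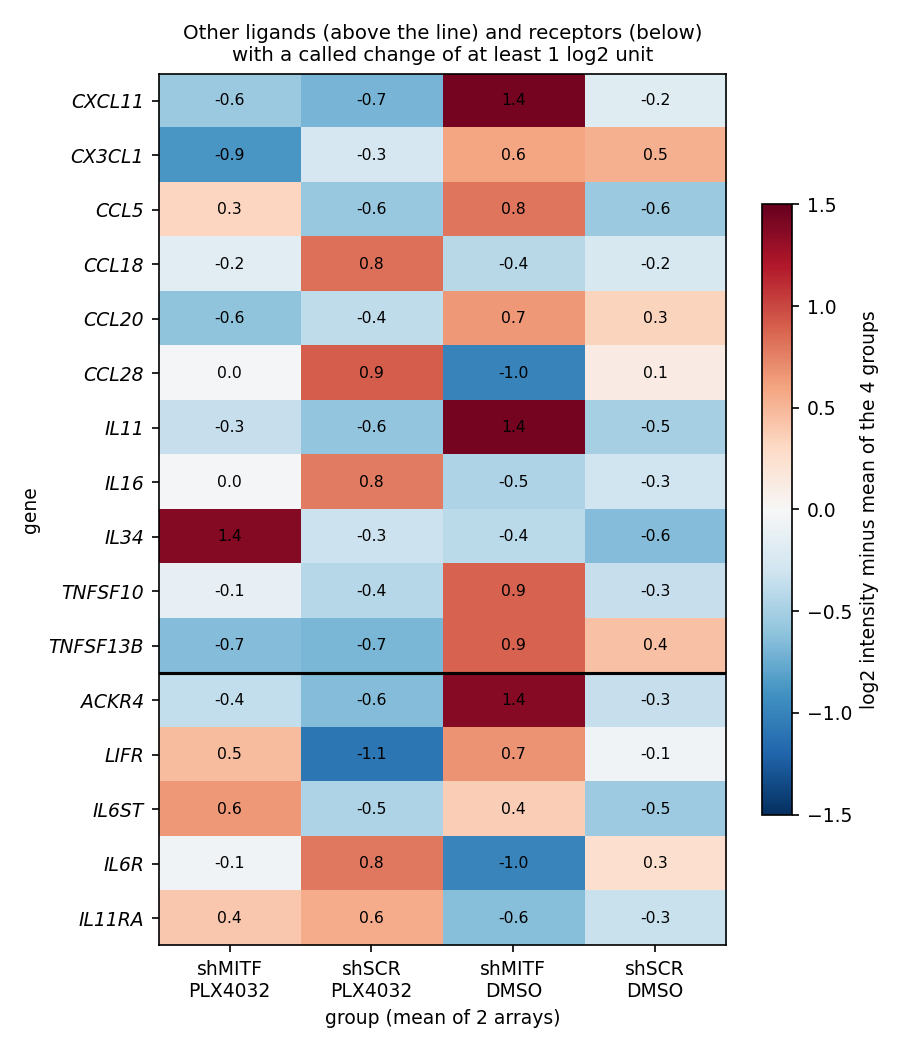
Group means of log2 intensity minus the mean of the 4 groups, for the 11 ligand genes and 5 receptor genes, other than the 10 described, that had a called change of at least 1 log2 unit on knockdown or with PLX4032. CXCL11, IL11 and ACKR4 stand highest in knockdown DMSO cells, IL34 in knockdown PLX4032 cells and CCL18, CCL28 and IL16 in scrambled PLX4032 cells.

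Some receptor genes of the gp130 family also changed, and not all in the direction of LIF. LIFR, the receptor of LIF, averaged 6.25 in knockdown PLX4032 cells, 4.69 in scrambled PLX4032 cells, 6.45 in DMSO-treated knockdown cells and 5.72 in scrambled DMSO cells. It rose on knockdown by 1.55 ± 0.10 in PLX4032 and by 0.73 ± 0.10 in DMSO, and PLX4032 lowered it in scrambled cells by 1.03 ± 0.10 and changed it by -0.21 ± 0.10 in knockdown cells (adjusted p = 0.159), with an interaction of 0.82 ± 0.15 (adjusted p = 0.00382). IL6ST rose on knockdown by 1.10 ± 0.099 in PLX4032 and by 0.91 ± 0.099 in DMSO, whereas IL6R, the receptor of IL6, changed by -0.85 ± 0.084 and -1.25 ± 0.084. With PLX4032, which lowered LIF, IL6ST was not called in knockdown (0.28 ± 0.099) or scrambled cells (0.09 ± 0.099). IL6R changed with PLX4032 by 0.94 ± 0.084 and 0.54 ± 0.084, IL11RA by 1.05 ± 0.077 and 0.89 ± 0.077, and OSMR by -0.31 ± 0.10 and -0.40 ± 0.10. Of 17 cytokine receptor genes, 8 rose and 3 fell on knockdown in each treatment (medians 0.31 in PLX4032 and 0.30 in DMSO). Among 17 chemokine receptor genes 0 rose and 0 fell on knockdown in PLX4032 and 2 rose and 0 fell in DMSO, of which ACKR4, a receptor that removes chemokines, rose by 1.70 ± 0.16 (adjusted p = 1.38e-05).

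The transcription factor genes that commonly act on these promoters also moved. Of 14 genes of the NF-kB module, 7 rose and 1 fell on knockdown in PLX4032 (median 0.44), and 4 rose and 4 fell on knockdown in DMSO (median -0.03). The subunit genes RELB and NFKB2 rose by 1.23 ± 0.10 and 1.22 ± 0.091 on knockdown in PLX4032 and by 1.04 ± 0.10 and 0.85 ± 0.091 on knockdown in DMSO. The falls in DMSO were NFKBIZ (-0.66 ± 0.078), NFKBIE (-0.65 ± 0.083), TNFAIP3 (-0.46 ± 0.087) and CHUK (-0.39 ± 0.10). TNFAIP3, which encodes an enzyme that restrains NF-kB signalling, rose on knockdown in PLX4032 by 1.30 ± 0.087, and IKBKE fell there by 0.48 ± 0.083. With PLX4032 in knockdown cells 3 of the 14 rose and 3 fell (median -0.07), where 18.6% of all genes rose and 15.1% fell. With PLX4032 in scrambled cells 2 of the 14 rose and 6 fell (median -0.05), where 17.3% of all genes rose and 16.8% fell. The NF-kB inhibitor gene NFKBIA rose with PLX4032 by 1.40 ± 0.091 in knockdown cells and by 0.78 ± 0.091 in scrambled cells, and TNFAIP3 changed by -0.90 ± 0.087 and -2.66 ± 0.087. Of 8 AP-1 genes, 7 rose and 0 fell on knockdown in PLX4032 (median 1.11) and 5 rose and 0 fell on knockdown in DMSO (median 0.61). JUN averaged 9.98 in knockdown PLX4032 cells, 8.01 in scrambled PLX4032 cells, 6.96 in DMSO-treated knockdown cells and 5.73 in scrambled DMSO cells. With PLX4032, 3 AP-1 genes rose and 2 fell in knockdown cells (median -0.02), and 3 rose and 2 fell in scrambled cells (median 0.03). Those that fell were JUNB (-0.44 ± 0.088) and FOSB (-0.31 ± 0.084) in knockdown cells and FOS (-0.57 ± 0.11) and BATF3 (-0.28 ± 0.081) in scrambled cells. Not among the 8 was the AP-1 gene FOSL1, which was counted above with the MAPK outputs. With PLX4032 FOSL1 changed more than these, by -0.92 ± 0.24 in knockdown cells and by -1.96 ± 0.24 in scrambled cells. On knockdown FOSL1 rose in PLX4032 by 0.97 ± 0.24 and was not called in DMSO (-0.07 ± 0.24). FOSL2 rose with PLX4032 by 1.95 ± 0.078 in knockdown cells and by 0.40 ± 0.078 in scrambled cells, with an interaction of 1.56 ± 0.11 (adjusted p = 9.31e-06), and ATF3 by 1.56 ± 0.14 and 0.54 ± 0.14, with an interaction of 1.03 ± 0.19 (adjusted p = 0.00566). The part of these factors in the changes of the 10 genes was not tested.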

How the data were processed

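RNA of 8 samples was biotin-labelled for Affymetrix arrays, 1 array per sample, per the labels' protocols. Each deposited value is the log2 intensity of a probe set. The submitters' processing notes name RMA, without a version, as the method, which corrects background, quantile-normalizes arrays and summarises probes. RMA sets all arrays to like distributions and compresses changes of dim probe sets. The array's genome build was not stated, and scanner files were not used. Of 32321 probe sets, 19158 carried exactly 1 symbol, which gave 18404 genes, each by its probe set with the highest mean. Groups followed the sample titles.

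Changes were tested with limma 3.58.1 (R 4.3.3; lmFit, eBayes) with 1 mean per group over all 8 arrays, 4 residual and 6.73 prior degrees of freedom, two-sided, with Benjamini-Hochberg adjustment over all genes within a comparison. The script was tested on simulated data. Precision is limited by having 2 arrays per group, with a median SE of 0.0939 for a change and 0.133 for the interaction. The genes and lists were chosen with earlier results of these data known, and the motif GGAATTTCC after the promoter sequences had been seen. List genes are described by counts and medians alone. The list genes named are among the 4 largest called changes of a list and comparison, and CXCL3, CXCL5 and CXCL6 are always named. Others (such as cell type markers, CXCL9, OSM, OSMR, STC2, FOSL1 and the receptors of the 10 genes) were chosen after their values were seen. Profile distance is the root mean square difference of values centred over the 8 arrays, with the 3 nearest other genes named. Some list genes, such as DCT and CCL27, were not analysed here.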

Additional observations from a re-analysis of the deposited data

Results flagged for a closer look

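The change with PLX4032 differed between knockdown and scrambled cells, by the limma interaction with an adjusted p under 0.05, for 6 of the 10 genes. Of all genes, 11.8% were called in the interaction, and the 10 genes were chosen with earlier results of these data known. The calls of CXCL1 and IL1B ended under some of the alternative settings given above. The difference, knockdown minus scrambled, was 2.19 for IL24, 1.25 for CCL2, 0.70 for LIF and 0.55 for CXCL1, and -1.25 for CXCL10 and -0.84 for IL1B. IL24 and CCL2 rose with PLX4032 in knockdown cells, LIF fell less there, CXCL1 fell in scrambled cells, and CXCL10 and IL1B fell more in knockdown cells. For CXCL10 and IL1B the scrambled PLX4032 cells read 4.01 and 4.45 on average, where 14.6% and 21.5% of genes read lower, and whether their low level limited the fall in scrambled cells was not tested.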

How the results depend on the processing

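Of 955 alternative values for the 10 genes and MITF, 942 kept their side of the threshold, 11 lost a call and 2 gained one. None reversed direction where either value was called. Changes near 0 that were not called could switch sign, such as CXCL8 with both perturbations (0.02, with alternatives from -0.15 to 0.19). All 13 exceptions concern CCL2 and IL24 with PLX4032 in scrambled cells and the interactions of CXCL1, IL1B and CXCL8. The settings were repeated quantile normalization, median centring, leaving out the dimmest 40% of genes (which drops CXCL2, CCL2, IL6 and IL1B), the mean of a gene's probe sets, a trended prior, fits of the 2 groups compared (not possible for the interaction), the replicate block and leaving out each array. The cause of the changes was not tested, and a group with 1 array is assumed to vary like the others. Leaving out 1 array, the genes called on knockdown in DMSO numbered 3723 to 6377 (6114 with all arrays), the lowest without array B of knockdown DMSO cells. For the interaction they numbered 1278 to 2132 (2176 with all arrays), with 1278 without array B and 1427 without array A of knockdown DMSO cells and 1431 without array A of scrambled PLX4032 cells. The letters A and B share no stated batch, and deviations of same-letter arrays correlated between -0.094 and 0.329 across pairs of groups, so the arrays were not taken as paired. With the replicate block, 6146 genes were called on knockdown in DMSO, 6295 with PLX4032 in scrambled cells, 6202 with PLX4032 in knockdown cells, 5279 on knockdown in PLX4032, 9031 with both perturbations and 2176 in the interaction, and among the 10 genes only IL24 with PLX4032 in scrambled cells changed, gaining a call (-0.36, limma adjusted p = 0.0107).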

Other observations

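Some ligand genes rose with PLX4032 in scrambled cells, where CXCL8, LIF and STC1 fell. CCL28, a chemokine of mucosal tissue, rose there by 0.78 ± 0.083 and averaged 8.56 in knockdown PLX4032 cells, 9.48 in scrambled PLX4032 cells, 7.57 in DMSO-treated knockdown cells and 8.70 in scrambled DMSO cells, and knockdown changed it by -0.92 ± 0.083 in PLX4032 and by -1.12 ± 0.083 in DMSO (limma adjusted p = 9.44e-06 and 2.77e-06). CCL18 rose with PLX4032 in scrambled cells by 1.06 ± 0.092 and changed by 0.24 ± 0.092 in knockdown cells (adjusted p = 0.0638), with an interaction of -0.81 ± 0.13 (adjusted p = 0.00201). IL16 rose with PLX4032 by 0.45 ± 0.15 in knockdown cells and by 1.08 ± 0.15 in scrambled cells. On knockdown in DMSO, CCL18 changed by -0.19 ± 0.092 (adjusted p = 0.141) and IL16 by -0.16 ± 0.15 (adjusted p = 0.433).

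Genes of proteins that bind unstable mRNAs, a class to which many cytokine mRNAs belong, gave mixed changes. Of 8 such genes, 3 rose and 1 fell on knockdown in PLX4032 and 3 rose and 2 fell on knockdown in DMSO. ZFP36L1 rose by 0.83 ± 0.084 and 0.55 ± 0.084, and ZFP36, which encodes tristetraprolin, by 0.67 ± 0.098 and 0.60 ± 0.098. With PLX4032 2 rose and 3 fell in knockdown cells and 1 rose and 3 fell in scrambled cells, and ZFP36L2 fell by 0.96 ± 0.094 and 0.27 ± 0.094. In JAK-STAT signalling, JAK2 fell on knockdown by 1.44 ± 0.098 in PLX4032 and by 1.18 ± 0.098 in DMSO, and the feedback inhibitor gene SOCS2 rose by 0.89 ± 0.085 and 1.57 ± 0.085.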
